A study of Mus musculus with 10 samples.

Results

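Transcripts of 10 ligands of the tumor necrosis factor (TNF) superfamily were followed in 2/20 cells, cytotoxic T lymphocytes (CTLs) of a mouse line that recognizes the AH1 tumor peptide. The members are Tnf, Lta, Ltb, Fasl, Tnfsf4, Tnfsf8, Tnfsf9, Tnfsf10, Tnfsf11 and Tnfsf14, taken by gene name, and they are 10 of 35275 genes counted. All groups come from this 1 line, labelled wild type. It was kept by weekly stimulation with irradiated spleen cells of BALB/c mice, IL-2 (10 units/mL) and AH1 (1 µg/mL). The groups, with 2 libraries each, were CTLs co-cultured with 4T1 cells for 24 h, CTLs co-cultured with 4T1 cells for 4 h, CTLs activated with AH1 peptide for 24 h, CTLs activated with AH1 peptide for 4 h, and resting CTLs. The 4T1 line is a mammary carcinoma of BALB/c mice. CTLs were collected on anti-CD45 beads before RNA extraction, and poly(A) RNA was sequenced from stranded libraries. The sources used here do not give the kind of replicate behind the 2 libraries, or whether spleen cells were present during peptide activation. No library of 4T1 cells alone was analysed.

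TNF superfamily ligands are trimeric proteins, displayed mostly at the cell surface, that bind receptors of the matching TNF receptor superfamily on neighboring cells. Receptors with a death domain can start apoptosis, whereas receptors without one recruit TRAF adaptors and drive NF-kappaB signaling. In cytotoxic T cells the family supplies inflammatory cytokines, death signals to target cells and costimulatory signals to antigen-presenting cells and other lymphocytes.

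Levels are given as CPM, counts relative to the TMM-scaled library size, with the values of the 2 libraries in order of replicate number. The words rose and fell mark genes whose p from the edgeR quasi-likelihood test, adjusted over 14729 genes by the Benjamini-Hochberg method, was under 0.05. With 2 libraries a group, these p-values rest on a spread that may be technical. The 4 comparisons with rest share the resting libraries. Library totals were 14104658 to 22910633 counts.

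Markers of other cells differed between the groups. Summed over 20 epithelial markers, levels were 4164 to 4184 CPM in co-culture at 24 h and 4748 to 4889 CPM in co-culture at 4 h. They were 12.5 to 18.7 CPM with peptide at 24 h, 14.7 to 23.3 CPM with peptide at 4 h and 35.7 to 42.4 CPM at rest. The 12 B cell markers summed to 216 to 452 CPM with peptide at 24 h and 472 to 558 CPM with peptide at 4 h. Their sum was 3.61 to 4.73 CPM in co-culture at 24 h, 1.76 to 2.17 CPM in co-culture at 4 h and 3.97 to 4.87 CPM at rest, and Ms4a1 and Cd22 were at 0 in these 3 groups. The 17 T cell identity genes encode the T cell receptor complex, its coreceptors, proximal signaling proteins and surface proteins, including leukocyte CD45 (Ptprc). They summed to 1303 to 1374 CPM in co-culture at 24 h and 3119 to 3261 CPM in co-culture at 4 h. Their sum was 4330 to 4677 CPM with peptide at 24 h, 14814 to 15276 CPM with peptide at 4 h and 8836 to 9208 CPM at rest, with Cd6 at 0 in both co-cultures and at rest. Among them Cd8a, the CD8 coreceptor chain of CTLs, had counts in all 10 libraries, from 23.5 CPM in co-culture at 24 h to 1412 CPM with peptide at 4 h. The 14 myeloid markers summed to 238 to 288 CPM with peptide at 4 h and to 66.7 to 109 CPM in the other groups. The part of these cells in the ligand levels was not tested, and in bulk RNA fewer cells of a type and less RNA per cell cannot be told apart.

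**Figure D1:**
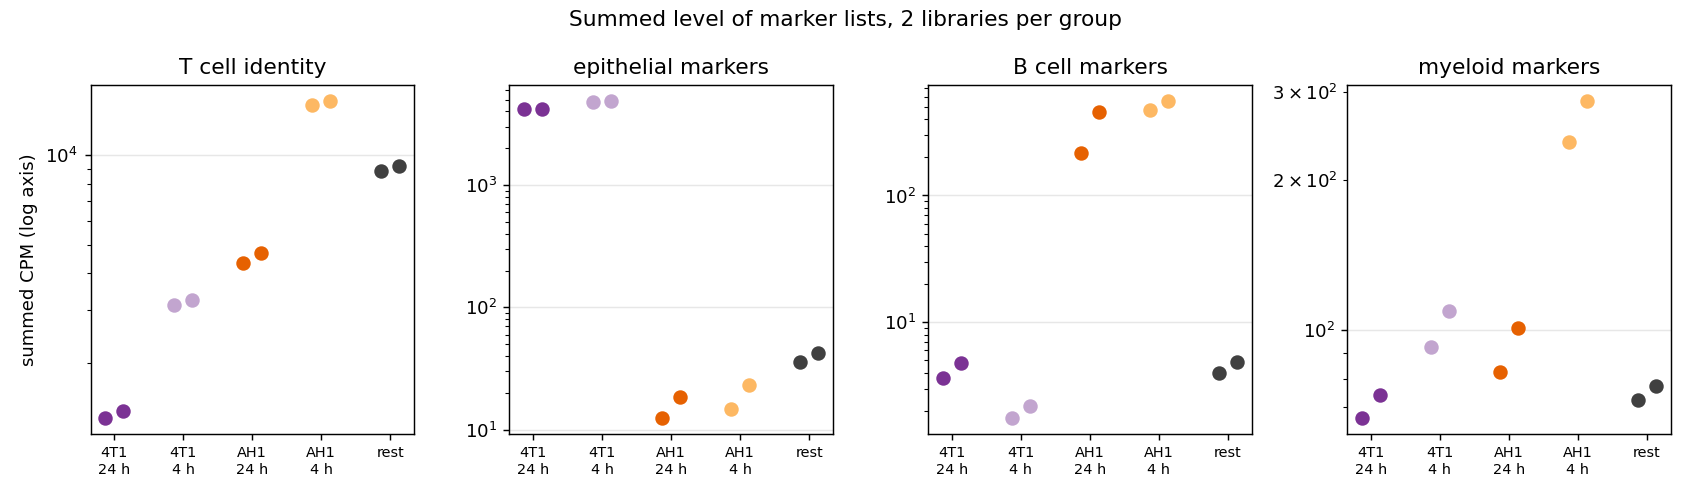
Summed level of each marker list (CPM, log axis) in the 2 libraries of each group, as points with the lower library to the left, for co-culture with 4T1 cells, AH1 peptide and rest from left to right. The epithelial markers stand at 4164 CPM or more in the 4 co-culture libraries and at 42.4 CPM or less elsewhere. The B cell markers stand at 216 CPM or more in the 4 peptide libraries and at 4.87 CPM or less elsewhere.

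Ligand changes are also given per T cell identity transcript, a scaling that sets the libraries equal on the median log2 deviation of those 17 genes from their means. It moves the median of all genes against rest to 2.60 (log2) in co-culture at 24 h and to 1.39 in co-culture at 4 h. With peptide the median moves to 0.87 at 24 h and -0.88 at 4 h, where TMM leaves these medians between -0.04 and 0.05. Every gene of a library moves by the same amount, those of 4T1 cells included, and the scaling takes the T cell identity genes as constant. By TMM, 0 of the 17 rose and 15 fell in co-culture at 24 h, and 11 rose and 4 fell with peptide at 4 h. Of all tested genes, 36% rose and 29.3% fell in co-culture at 24 h by TMM, and 80.9% rose and 1.83% fell by T cell identity scaling. In co-culture at 4 h the shares were 34.2% and 26.7% by TMM and 67.2% and 6.26% by T cell identity scaling. With peptide at 24 h they were 29.2% and 26.1% by TMM and 51.4% and 10.6% by T cell identity scaling. With peptide at 4 h they were 28.8% and 30.7% by TMM and 13.9% and 50.6% by T cell identity scaling.

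Tnf, Lta and Ltb lie side by side on chromosome 17 within 10913 bases and encode the inflammatory cytokine TNF, the secreted lymphotoxin alpha and the membrane anchor lymphotoxin beta. Tnf (ENSMUSG00000024401, chromosome 17, minus strand, 35199381 to 35202007, mm10, as are all positions) was by far highest with peptide at 4 h. Tnf stood in co-culture at 23.5 and 18.4 CPM at 24 h and 109 and 126 CPM at 4 h. Peptide gave 134 and 109 CPM at 24 h and 4302 and 5731 CPM at 4 h, against 203 and 205 CPM at rest. The peptide 4 h pair stood far above the resting pair, which came next. The peptide 24 h and co-culture 4 h libraries lay below rest and overlapped each other, and the co-culture 24 h libraries were lowest.

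Against rest, Tnf rose by a log2 fold change of 4.62 ± 0.20 (SE) with peptide at 4 h (edgeR adjusted p = 1.59e-09). It fell with peptide at 24 h (-0.75 ± 0.17, edgeR adjusted p = 0.00238) and in co-culture at 4 h (-0.80 ± 0.17, edgeR adjusted p = 0.0013). Per T cell identity transcript both changes turned positive, to 0.10 (edgeR adjusted p = 0.635) and 0.54 (edgeR adjusted p = 0.0113). In co-culture at 24 h it fell by TMM (-3.28 ± 0.19, edgeR adjusted p = 8.21e-09) and per T cell identity transcript (-0.73). Co-culture gave less Tnf than peptide at both times, with log2 fold changes of -5.42 ± 0.20 at 4 h and -2.53 ± 0.18 at 24 h by TMM. Per T cell identity transcript these were -3.23 and -0.83, both with calls. With peptide, Tnf was lower at 24 h than at 4 h (-5.37 ± 0.20; -3.68 per T cell identity transcript).

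Lta (ENSMUSG00000024402, chromosome 17, minus strand, 35203165 to 35205351) was high at both peptide times. Lta stood in co-culture at 14.5 and 11.9 CPM at 24 h and 66.8 and 77.9 CPM at 4 h. Peptide gave 1190 and 955 CPM at 24 h and 1069 and 1176 CPM at 4 h, against 93.5 and 97.4 CPM at rest. All 4 peptide libraries stood at 955 CPM or more, with the 24 h and 4 h pairs overlapping, and the 6 others at 97.4 CPM or less. The 4 peptide libraries were also those with B cell markers at 216 to 558 CPM, whose part in Lta was not tested. Against rest, Lta rose with peptide at 24 h (3.49 ± 0.16, edgeR adjusted p = 4.4e-09) and at 4 h (3.56 ± 0.16, edgeR adjusted p = 2.87e-09).

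The peptide 24 h and 4 h libraries gave a log2 fold change for Lta of -0.07 ± 0.15 at 24 h over 4 h (edgeR adjusted p = 0.743). That change was 0.50 with library totals and 1.63 per T cell identity transcript, both past the threshold, and 0.10 without peptide 24 h replicate 2. In co-culture at 24 h Lta fell against rest (-2.85 ± 0.17, edgeR adjusted p = 9.28e-09), and per T cell identity transcript the change was -0.30 (edgeR adjusted p = 0.068). In co-culture at 4 h it was lower than at rest by TMM (-0.40 ± 0.15, edgeR adjusted p = 0.0362) and higher per T cell identity transcript (0.94, edgeR adjusted p = 6.12e-05). The TMM call was lost without any 1 of the 4 libraries compared, with adjusted p between 0.0618 and 0.281. Of the 10 members, Lta had the most negative log2 fold change between co-culture and peptide at 24 h among those with counts in both groups (-6.34 ± 0.19, edgeR adjusted p = 1.33e-10; -4.64 per T cell identity transcript).

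Ltb (ENSMUSG00000024399, chromosome 17, plus strand, 35194439 to 35196320), which joins lymphotoxin alpha in the membrane heterotrimer that binds the lymphotoxin beta receptor, was highest at rest. Ltb stood in co-culture at 284 and 284 CPM at 24 h and 719 and 666 CPM at 4 h. Peptide gave 143 and 175 CPM at 24 h and 788 and 763 CPM at 4 h, against 2549 and 2693 CPM at rest. The 8 activated libraries stood at 788 CPM or less, and the peptide 24 h libraries were lowest. Ltb fell against rest in all 4 activated groups, by a log2 fold change of -3.21 ± 0.14 in co-culture at 24 h and -1.92 ± 0.13 in co-culture at 4 h. With peptide the change was -4.04 ± 0.15 at 24 h and -1.76 ± 0.13 at 4 h.

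The fall of Ltb kept its direction and its side of the threshold per T cell identity transcript, at -0.65, -0.57, -3.18 and -2.61 in the same order. In co-culture at 24 h Ltb was higher than with peptide at 24 h (0.84 ± 0.13, edgeR adjusted p = 0.00014). At 4 h co-culture and peptide gave a log2 fold change of -0.16 ± 0.13 (edgeR adjusted p = 0.293), which was 0.43 with library totals and 2.04 per T cell identity transcript, both past the threshold.

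**Figure D2:**
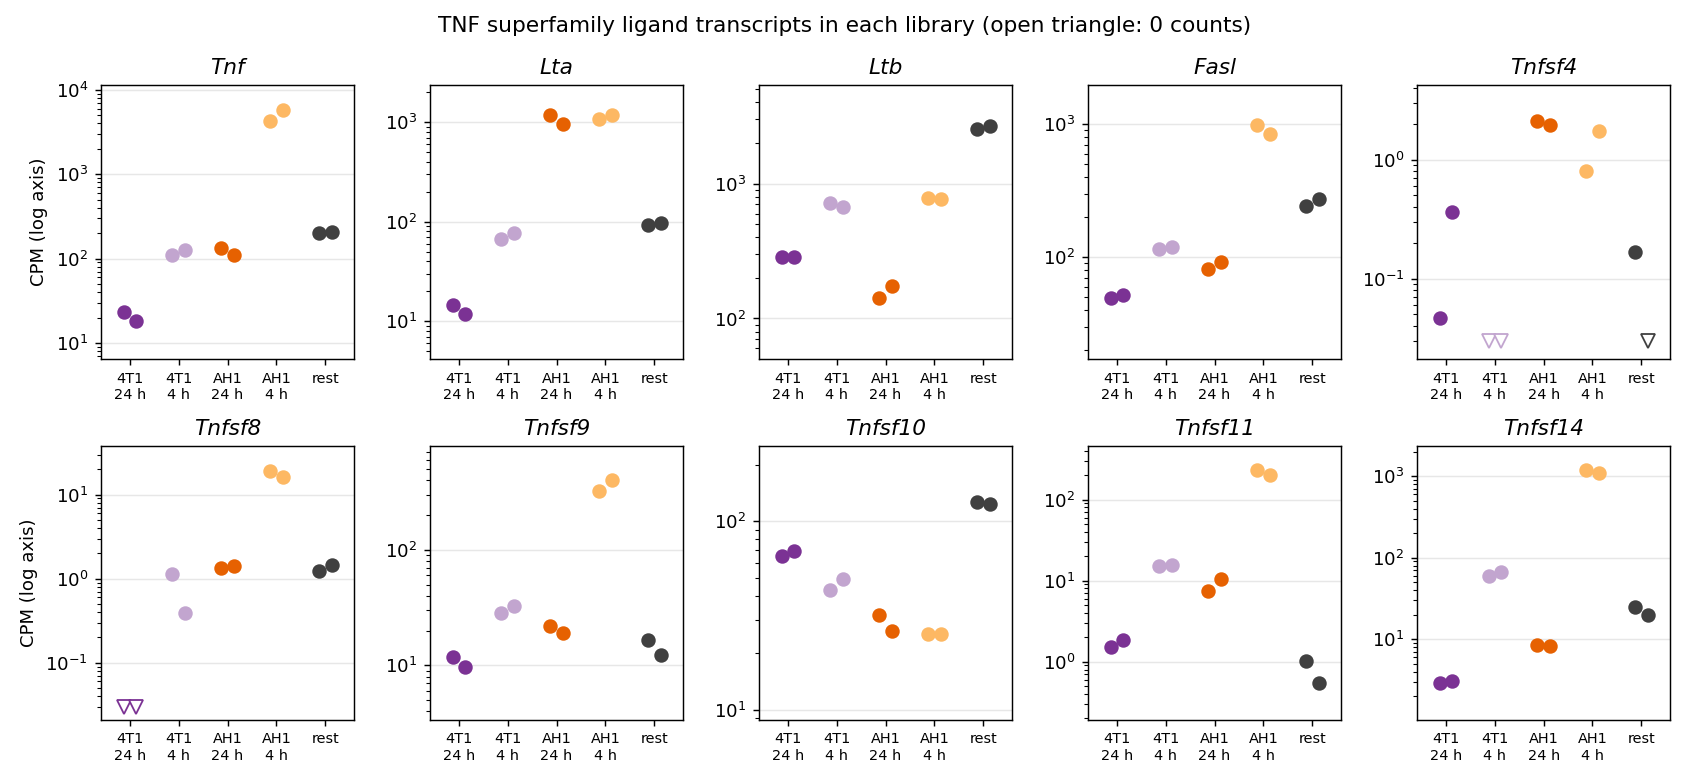
Level of each member in CPM (log axis) in the 2 libraries of each group, as points, with co-culture with 4T1 cells, AH1 peptide and rest from left to right; an open triangle marks a library with 0 counts. Tnf, Fasl, Tnfsf9, Tnfsf11 and Tnfsf14 peak with peptide at 4 h, Lta is high at both peptide times, and Ltb and Tnfsf10 are highest at rest by TMM scaling, whereas Tnfsf10 is higher in co-culture at 24 h than at rest by T cell identity scaling.

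The genes around the locus are given beside it. Of 8 other tested genes within 50 kb of Lta, Tnf or Ltb, 2 rose and 0 fell with peptide at 4 h (28.8% and 30.7% of all genes). The 2 were the helicase gene Ddx39b (0.39) and Prrc2a (0.63). The 8 log2 fold changes ran from -2.27 for the pseudogene Ncr3-ps to 0.74 for Aif1, neither of which passed the test. Per T cell identity transcript 0 rose and 6 fell (13.9% and 50.6% of all genes). With peptide at 24 h, 1 rose and 2 fell by TMM (29.2% and 26.1%), and 4 rose and 0 fell by T cell identity scaling (51.4% and 10.6%). In co-culture at 24 h, 0 rose and 6 fell by TMM (36% and 29.3% of all genes), with values from -2.33 to -0.02. By T cell identity scaling 5 rose and 0 fell there (80.9% and 1.83% of all genes). In co-culture at 4 h, 0 rose and 2 fell by TMM (34.2% and 26.7%), and 5 rose and 0 fell by T cell identity scaling (67.2% and 6.26%).

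Promoter sequences are shown for the 3 genes of the locus and for Tnfsf14 and Tnfsf10, which moved in opposite directions with peptide at 4 h. They are RefSeq sequences of build GRCm38.p6, read 5′ to 3′ on the gene's strand from 250 bases before the RefSeq start, and stop where the deposited gene model begins. Capitals mark GGAAA or its reverse complement TTTCC, the core bound by NFAT factors, which act below the T cell receptor. The stretches are chr17:35202008-35202257 for Tnf, chr17:35205352-35205601 for Lta and chr17:57194190-57194431 for Tnfsf14 on the minus strand, and chr17:35194257-35194438 for Ltb and chr3:27316827-27317027 for Tnfsf10 on the plus strand.
Tnf: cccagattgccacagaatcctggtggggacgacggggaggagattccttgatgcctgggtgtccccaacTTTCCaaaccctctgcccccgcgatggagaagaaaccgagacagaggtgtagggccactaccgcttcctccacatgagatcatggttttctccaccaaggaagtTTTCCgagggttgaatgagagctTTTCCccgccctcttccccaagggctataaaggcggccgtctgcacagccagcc
Lta: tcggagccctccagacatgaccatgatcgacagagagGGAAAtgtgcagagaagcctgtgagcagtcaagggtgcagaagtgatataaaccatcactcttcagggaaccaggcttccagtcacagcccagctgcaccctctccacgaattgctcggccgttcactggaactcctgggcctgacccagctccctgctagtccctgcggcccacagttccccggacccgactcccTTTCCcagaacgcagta
Ltb: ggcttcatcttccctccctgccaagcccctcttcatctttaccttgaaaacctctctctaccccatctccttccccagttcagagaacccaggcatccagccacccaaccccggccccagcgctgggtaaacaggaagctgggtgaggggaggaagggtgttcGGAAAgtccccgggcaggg
Tnfsf14: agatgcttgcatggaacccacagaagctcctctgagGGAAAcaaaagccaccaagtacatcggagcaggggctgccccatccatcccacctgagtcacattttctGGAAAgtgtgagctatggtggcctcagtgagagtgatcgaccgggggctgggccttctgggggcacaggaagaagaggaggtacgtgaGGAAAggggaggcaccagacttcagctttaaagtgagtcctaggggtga
Tnfsf10: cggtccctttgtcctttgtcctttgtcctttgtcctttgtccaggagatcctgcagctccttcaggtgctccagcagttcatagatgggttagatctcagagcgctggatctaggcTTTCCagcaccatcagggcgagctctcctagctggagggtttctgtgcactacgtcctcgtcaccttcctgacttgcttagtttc
Within 250 bases before the start, GGAAA on either strand occurred 3 times for Tnf, 2 times for Lta, 1 time for Ltb, 3 times for Tnfsf14 and 1 time for Tnfsf10. Of 32851 RefSeq promoter windows of this length, 55.6% hold it. The kappaB-like motif GGGNNNNNCC, searched on both strands, occurred 1, 2, 4, 4 and 0 times in the same order, and 45.8% of windows hold it. Matches may overlap GGAAA and each other, so a count is not a number of separate sites. For Ltb, only the match that overlaps GGAAA lies in the printed stretch. The other Ltb matches overlap each other in 1 run of bases inside the deposited gene model. The AP-1 motif TGANTCA, the same on both strands, was found in the Tnfsf14 window alone among these 5 and is held by 6.75% of all windows. TATAAA on the gene's strand was found for Tnf and Lta and is held by 7.59% of windows. Promoters of 8 of the 10 members were matched, without Tnfsf4 and Tnfsf9. In the matched windows not shown, GGAAA occurred 2 times for Fasl, 1 time for Tnfsf8 and 1 time for Tnfsf11. The kappaB-like motif occurred 1, 0 and 2 times there. These members also rose with peptide at 4 h (1.82, 3.72 and 8.07), so the GGAAA count did not follow the size of the rise. A match describes letters and is not a measured binding site.

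By TMM the death ligands Fasl and Tnfsf10 went in opposite directions against rest with peptide at 4 h, and both fell in the 3 other comparisons with rest. Fasl (ENSMUSG00000000817, chromosome 1, minus strand, 161780691 to 161788495) encodes Fas ligand, which triggers apoptosis through Fas on the target cell. Fasl stood in co-culture at 49 and 51.8 CPM at 24 h and 115 and 120 CPM at 4 h. Peptide gave 81.5 and 91.3 CPM at 24 h and 989 and 851 CPM at 4 h, against 244 and 275 CPM at rest. The peptide 4 h pair was highest and the co-culture 24 h pair lowest, and no group overlapped another. Fasl rose against rest with peptide at 4 h (1.82 ± 0.14, edgeR adjusted p = 1.27e-07). It fell with peptide at 24 h (-1.59 ± 0.14), in co-culture at 24 h (-2.37 ± 0.14) and in co-culture at 4 h (-1.14 ± 0.13). Per T cell identity transcript the fall with peptide at 24 h kept its call at -0.73. There both co-culture values turned positive and did not pass the test, at 0.19 at 24 h and 0.20 at 4 h (edgeR adjusted p = 0.295 and 0.283).

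Tnfsf10 (ENSMUSG00000039304, chromosome 3, plus strand, 27317028 to 27342427) encodes TRAIL, an apoptosis-inducing ligand. Tnfsf10 stood in co-culture at 65.1 and 69.5 CPM at 24 h and 43.1 and 49.4 CPM at 4 h. Peptide gave 31.9 and 26.2 CPM at 24 h and 25.3 and 25.2 CPM at 4 h, against 126 and 123 CPM at rest. Both resting libraries lay above all others, the co-culture 24 h pair came next, and the peptide 4 h pair was lowest. Tnfsf10 fell against rest by TMM in all 4 activated groups, with changes of -0.89 ± 0.15 in co-culture at 24 h and -1.43 ± 0.15 in co-culture at 4 h. With peptide they were -2.10 ± 0.15 at 24 h and -2.30 ± 0.16 at 4 h. Per T cell identity transcript both peptide falls kept their call (-1.25 at 24 h and -3.15 at 4 h). The co-culture 4 h value was -0.09 (edgeR adjusted p = 0.584), and the co-culture 24 h value turned to a rise of 1.67 (edgeR adjusted p = 2.77e-07).

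Co-culture held more Tnfsf10 than peptide at 24 h (1.21 ± 0.15) and at 4 h (0.88 ± 0.15, edgeR adjusted p = 0.00024), and both rises were larger per T cell identity transcript. Within a library, the ratio of Fasl to Tnfsf10 signal per transcript length was 1.94 and 1.93 in co-culture at 24 h and 6.92 and 6.27 in co-culture at 4 h. It was 6.58 and 9.01 with peptide at 24 h, 101 and 87.2 with peptide at 4 h, and 5.01 and 5.78 at rest. This ratio does not depend on library scaling.

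Of the ligands known for costimulation, Tnfsf14 and Tnfsf9 had counts in all 10 libraries, whereas Tnfsf4 had 0 counts in 3 and Tnfsf8 in 2. Tnfsf14 (ENSMUSG00000005824, chromosome 17, minus strand, 57189492 to 57194189) encodes LIGHT, a ligand of the herpesvirus entry mediator and the lymphotoxin beta receptor. Tnfsf14 stood in co-culture at 2.92 and 3.08 CPM at 24 h and 58.8 and 65.8 CPM at 4 h. Peptide gave 8.46 and 8.3 CPM at 24 h and 1186 and 1086 CPM at 4 h, against 24.5 and 20 CPM at rest. The peptide 4 h pair stood far above the rest of the libraries, the co-culture 4 h pair was above the resting pair, and both 24 h groups were below it.

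Tnfsf14 rose against rest with peptide at 4 h (5.67 ± 0.16, edgeR adjusted p = 1.27e-10) and in co-culture at 4 h (1.48 ± 0.14, edgeR adjusted p = 1.16e-06), under all scalings run. It fell with peptide at 24 h (-1.41 ± 0.15; -0.56 per T cell identity transcript) and in co-culture at 24 h (-2.89 ± 0.17), where the value was -0.34 per T cell identity transcript (edgeR adjusted p = 0.1). Of the 10 members it had the most negative log2 fold change at 24 h over 4 h of peptide (-7.08 ± 0.18; -5.38 per T cell identity transcript).

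Tnfsf9 (ENSMUSG00000035678, chromosome 17, plus strand, 57105385 to 57107757) encodes the ligand of CD137. It overlaps the gene model Gm11110 on the opposite strand, and the sources used here name no strand setting for the counting. Tnfsf9 stood in co-culture at 11.9 and 9.66 CPM at 24 h and 28.6 and 32.7 CPM at 4 h. Peptide gave 22 and 19 CPM at 24 h and 321 and 399 CPM at 4 h, against 16.6 and 12.4 CPM at rest. The peptide 4 h pair stood far above the others, which ran from 9.66 to 32.7 CPM. Tnfsf9 rose against rest with peptide at 4 h (4.63 ± 0.20, edgeR adjusted p = 2.02e-09) and in co-culture at 4 h (1.08 ± 0.19, edgeR adjusted p = 0.000246). Gm11110 fell in both comparisons (-1.38 with peptide at 4 h and -2.0 in co-culture at 4 h).

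The rise of Tnfsf9 with peptide at 24 h was small (0.50 ± 0.19, edgeR adjusted p = 0.04) and lost its call without peptide 24 h replicate 1 (edgeR adjusted p = 0.192), without rest replicate 2 (0.309) and without either co-culture 4 h library (0.0587 and 0.0588). In co-culture at 24 h the change of Tnfsf9 was -0.43 ± 0.19 by TMM (edgeR adjusted p = 0.0664), with adjusted p between 0.0421 and 0.0499 without peptide 4 h replicate 1, peptide 4 h replicate 2 or rest replicate 2. Per T cell identity transcript Tnfsf9 rose there (2.11, edgeR adjusted p = 9.26e-07).

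Tnfsf4 (ENSMUSG00000026700, chromosome 1, plus strand, 161395409 to 161418410) encodes OX40 ligand and passed the filter on low counts through the peptide libraries only. Counts with peptide were thus the condition for its being tested, so its comparisons with the peptide groups only describe its levels. Tnfsf4 stood in co-culture at 0.0463 and 0.36 CPM at 24 h and 0 and 0 CPM at 4 h. Peptide gave 2.13 and 1.97 CPM at 24 h and 0.81 and 1.75 CPM at 4 h, against 0.168 and 0 CPM at rest. The peptide libraries lay between 0.81 and 2.13 CPM and the other 6 at or below 0.36 CPM. Its rises against rest rest on 3 resting counts, with count ratios of 22.1 (95% interval 7.30 to 110, counting error only) with peptide at 24 h and 13.9 (4.37 to 70.5) with peptide at 4 h. The calls of both rises were lost without rest replicate 2, and that at 4 h also without peptide 4 h replicate 2. The call at 4 h was also lost by T cell identity scaling. In co-culture at 4 h, with 0 counts, Tnfsf4 was at least 17.9-fold lower than with peptide at 4 h, taking 3 counts over the group as the floor. This bound uses TMM-scaled sizes and would be smaller by T cell identity scaling. At 24 h the count ratio of co-culture to peptide was 0.0951 (0.0396 to 0.197). The call there was lost without co-culture 24 h replicate 1, without peptide 24 h replicate 1 and by T cell identity scaling.

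Tnfsf8 (ENSMUSG00000028362, chromosome 4, minus strand, 63831308 to 63861347) encodes CD30 ligand. Tnfsf8 stood in co-culture at 0 and 0 CPM at 24 h and 1.15 and 0.395 CPM at 4 h. Peptide gave 1.33 and 1.42 CPM at 24 h and 19.1 and 16.1 CPM at 4 h, against 1.23 and 1.44 CPM at rest. The peptide 4 h pair stood at 16.1 CPM or more, and the other 8 libraries at 1.44 CPM or less. Tnfsf8 rose against rest with peptide at 4 h (3.72 ± 0.48, edgeR adjusted p = 2.68e-05). In co-culture at 24 h, with 0 counts in both libraries, it was at least 18.1-fold lower than at rest (edgeR adjusted p = 7.77e-05) and at least 18.8-fold lower than with peptide at 24 h. Both bounds use TMM-scaled sizes and would be smaller by T cell identity scaling. There the edgeR adjusted p was 0.00661 against rest and 0.00175 against peptide at 24 h. In co-culture at 4 h the change against rest was -0.85 ± 0.52 (edgeR adjusted p = 0.178), with an adjusted p of 0.0369 without co-culture 4 h replicate 1.

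Tnfsf11 (ENSMUSG00000022015, chromosome 14, minus strand, 78277445 to 78308043) encodes RANKL, known for osteoclast formation and for its action on dendritic cells. Tnfsf11 stood in co-culture at 1.53 and 1.85 CPM at 24 h and 15.2 and 15.6 CPM at 4 h. Peptide gave 7.4 and 10.5 CPM at 24 h and 231 and 201 CPM at 4 h, against 1.01 and 0.549 CPM at rest. The resting pair was lowest and the co-culture 24 h pair just above it. The peptide 24 h and co-culture 4 h libraries lay between 7.4 and 15.6 CPM, and both peptide 4 h libraries stood at 201 CPM or more. It was the only member that rose against rest in all 4 activated groups by TMM, and it did so by T cell identity scaling too, as did Tnfsf9.

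The rise of Tnfsf11 against rest was 1.07 ± 0.35 in co-culture at 24 h (edgeR adjusted p = 0.017), 4.26 ± 0.28 in co-culture at 4 h (edgeR adjusted p = 3.24e-08), 3.47 ± 0.29 with peptide at 24 h (edgeR adjusted p = 4.77e-07) and 8.07 ± 0.28 with peptide at 4 h (edgeR adjusted p = 4e-10). The last was the most positive of the 10 members in that comparison. The call in co-culture at 24 h was lost without co-culture 24 h replicate 2 (edgeR adjusted p = 0.0808), without rest replicate 2 (0.135) and when only those groups were fitted (0.127).

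**Figure D3:**
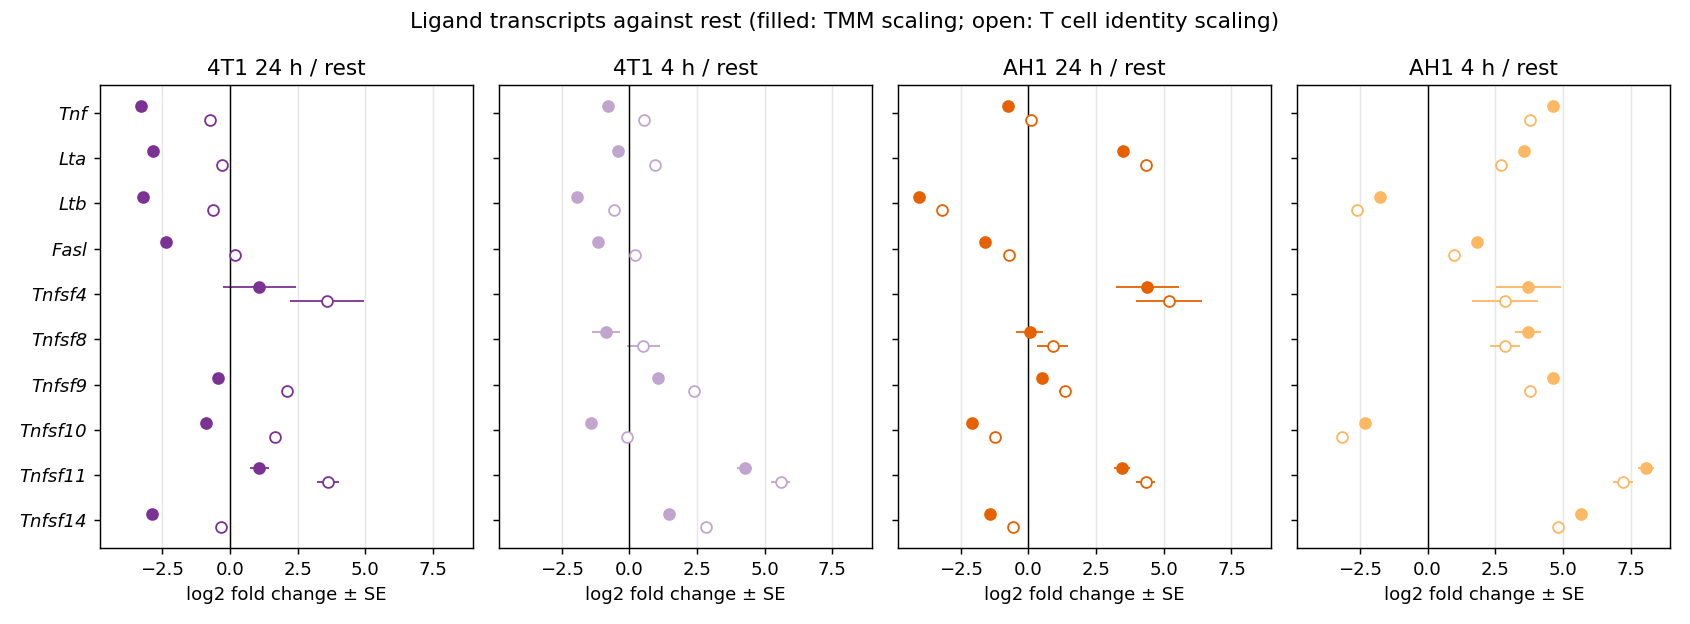
Log2 fold change ± SE of each member against rest, with co-culture at 24 h and 4 h and peptide at 24 h and 4 h from left to right; filled points use TMM scaling and open points T cell identity scaling, and members with 0 counts in co-culture are left out of that panel. Tnfsf11 lies right of 0 and Ltb left of 0 in all 4 panels under both scalings, whereas in co-culture Fasl lies left of 0 with TMM and right of it with T cell identity scaling.

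The make-up of the family changed with activation, and shares within a library do not depend on its scaling. Scaled to transcript length and summed over the 10 members, Ltb took 72.7% and 73.8% in co-culture at 24 h and 67.5% and 63.2% in co-culture at 4 h. It took 9% and 12.9% with peptide at 24 h and 10.2% and 8.51% with peptide at 4 h, against 82.9% and 83.2% at rest. Lta took 3.82% and 3.18% in co-culture at 24 h and 6.41% and 7.57% in co-culture at 4 h. It took 76.9% and 72% with peptide at 24 h and 14.1% and 13.4% with peptide at 4 h, against 3.11% and 3.08% at rest. Tnf took 5.21% and 4.15% in co-culture at 24 h and 8.81% and 10.3% in co-culture at 4 h. It took 7.3% and 6.93% with peptide at 24 h and 47.9% and 55.2% with peptide at 4 h, against 5.71% and 5.46% at rest. Thus Ltb led in the resting and co-culture libraries, Tnf with peptide at 4 h and Lta with peptide at 24 h, and the pairs of libraries did not overlap the others in the leading ligand's share.

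The ratio of Lta to Ltb per length stood at 8.55 and 5.58 with peptide at 24 h and at 1.39 and 1.58 with peptide at 4 h, against 0.0376 and 0.037 at rest. In co-culture it was 0.0525 and 0.043 at 24 h and 0.0951 and 0.12 at 4 h. Tnfsf14 took 0.57% and 0.611% in co-culture at 24 h and 4.2% and 4.75% in co-culture at 4 h. It took 0.407% and 0.466% with peptide at 24 h and 11.6% and 9.22% with peptide at 4 h, against 0.608% and 0.472% at rest. Together the 10 members took 0.05% and 0.0481% of all counts in co-culture at 24 h and 0.129% and 0.128% in co-culture at 4 h. They took 0.175% and 0.154% with peptide at 24 h, 0.635% and 0.777% with peptide at 4 h, and 0.34% and 0.354% at rest.

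**Figure D4:**
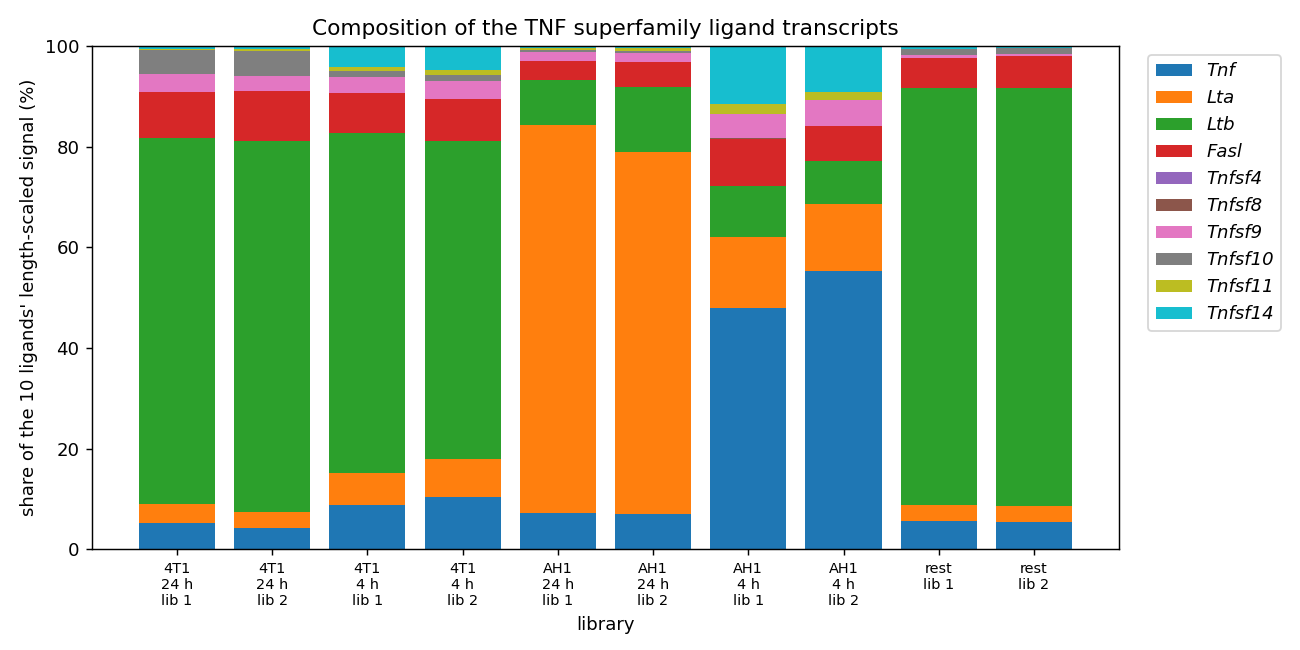
Share of each member in the summed length-scaled signal of the 10 ligands (percent, stacked to 100) in each library, with co-culture, peptide and rest from left to right. Ltb fills most of the bar in the resting and co-culture libraries, Tnf takes 47.9% and 55.2% with peptide at 4 h, and Lta 76.9% and 72.0% with peptide at 24 h.

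Tnfsf4, kept by the filter through the peptide libraries alone, is left out of the counts over the family. Of the 9 other members, 7 rose and 2 fell with peptide at 4 h against rest, where 28.8% of all tested genes rose and 30.7% fell. With peptide at 24 h 3 rose and 5 fell (29.2% and 26.1% of all genes). In co-culture at 4 h 3 rose and 5 fell (34.2% and 26.7%), and in co-culture at 24 h 1 rose and 7 fell (36% and 29.3%). The median log2 fold change of the 9 was -2.85 in co-culture at 24 h, -0.80 in co-culture at 4 h, -0.75 with peptide at 24 h and 3.72 with peptide at 4 h, beside medians of all tested genes of 0.05, 0.05, 0.02 and -0.04. Tnfsf8, with 0 counts in co-culture at 24 h, leaves these medians as they are when held at its bound. By T cell identity scaling 3 rose and 3 fell in co-culture at 24 h (80.9% and 1.83% of all genes), and 5 rose and 1 fell in co-culture at 4 h (67.2% and 6.26%). With peptide 3 rose and 4 fell at 24 h (51.4% and 10.6%), and 7 rose and 2 fell at 4 h (13.9% and 50.6%).

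Set against peptide, co-culture had 1 of the 9 higher and 7 lower at 4 h (35.1% and 26.3% of all genes), the higher one being Tnfsf10 and the one without a call Ltb. At 24 h 2 were higher, Ltb and Tnfsf10, and 7 lower (28.6% and 24% of all genes). The median of the 9 was -3.81 at 4 h and -1.48 at 24 h, beside 0.16 and 0.02 for all genes. By T cell identity scaling the 7 lower members at 4 h stayed lower with calls and 2 were higher (84.4% of all genes higher and 2.76% lower). At 24 h that scaling gave 4 higher and 4 lower (78.5% and 4.45% of all genes). Fasl and Tnfsf9 changed sign there, to 0.92 and 0.77, both with calls, and Tnfsf14 to 0.22 without one.

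Between the times, 0 of the 9 were higher and 7 lower at 24 h than at 4 h of peptide (28.2% and 24.6% of all genes), and 1 was higher and 8 lower in co-culture (8.50% and 8.02%). Those without a call with peptide were Lta and Tnfsf10, and the higher one in co-culture was Tnfsf10 (0.54 ± 0.15, edgeR adjusted p = 0.024), a call lost without either co-culture 4 h library, co-culture 24 h replicate 2 or rest replicate 2 (0.0559 to 0.228). By T cell identity scaling 2 were higher and 7 lower with peptide (73% and 2.97% of all genes), and 1 was higher and 5 lower in co-culture (72.5% and 1.35%). With library totals 2 were higher and 7 lower with peptide (43.4% and 12.6%).

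The change over time differed by source of activation for 7 members, with 6 differences above 0 and 1 below (15.8% and 20.2% of all genes). The difference, co-culture minus peptide, was -2.38 ± 0.22 for Lta (edgeR adjusted p = 4.26e-06), which fell over time in co-culture (-2.45 ± 0.16) and had no call with peptide (-0.07 ± 0.15). It was 2.89 ± 0.25 for Tnf (edgeR adjusted p = 2.48e-06), which fell at both sources, with changes of -2.48 ± 0.18 in co-culture and -5.37 ± 0.20 with peptide. The differences for Fasl (2.19 ± 0.19), Tnfsf9 (2.62 ± 0.26) and Tnfsf14 (2.71 ± 0.23) were also above 0, and these 5 kept their calls and signs by T cell identity scaling, where 6.91% of all genes differed upward and 31.3% downward. Ltb (1.0 ± 0.19) and Tnfsf11 (1.41 ± 0.32) did not, with 0.49 and 0.90 (edgeR adjusted p = 0.16 and 0.101).

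**Figure D5:**
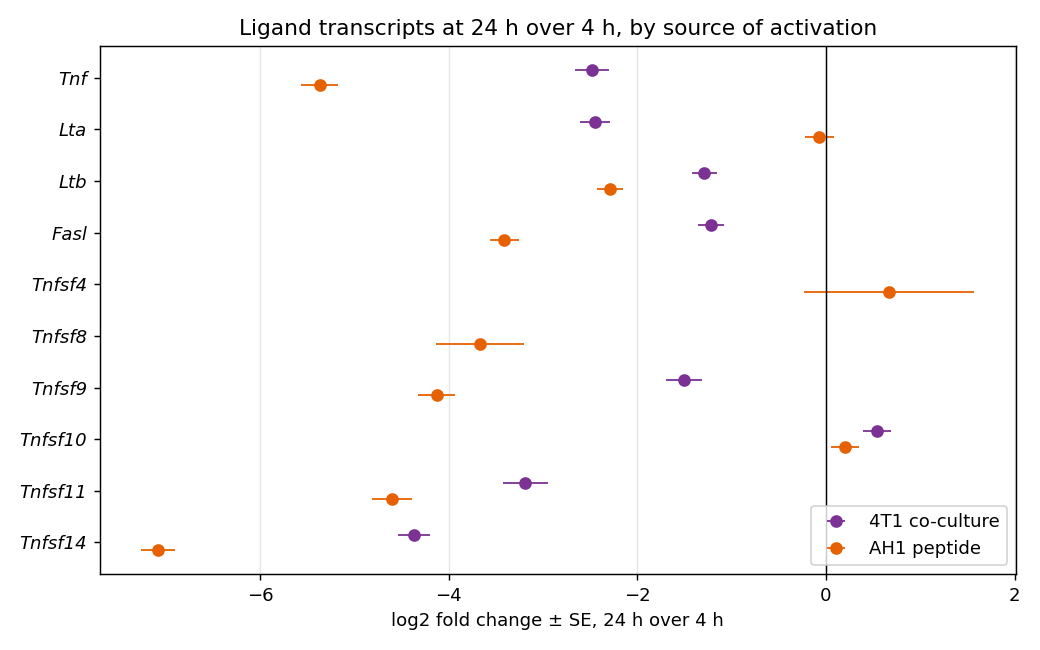
Log2 fold change ± SE of each member at 24 h over 4 h, in co-culture with 4T1 cells and with AH1 peptide, by TMM scaling; Tnfsf4 and Tnfsf8 in co-culture are left out because 1 of the groups compared had 0 counts. The points of Lta lie at -2.45 in co-culture and -0.07 with peptide, and those of Tnfsf14 at -4.37 and -7.08. By T cell identity scaling Lta lies at -1.24 in co-culture and 1.63 with peptide.

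Among 13 tested receptors of these ligands, 6 rose and 6 fell in co-culture at 24 h, and 8 rose and 3 fell in co-culture at 4 h, where 36% and 29.3% of all genes rose and fell at 24 h and 34.2% and 26.7% at 4 h. With peptide 6 rose and 4 fell at 24 h, and 7 rose and 1 fell at 4 h (29.2% and 26.1%, and 28.8% and 30.7%, of all genes). By T cell identity scaling 10 rose and 1 fell in co-culture at 24 h (80.9% and 1.83% of all genes), and 10 rose and 0 fell in co-culture at 4 h (67.2% and 6.26%). With peptide that scaling gave 9 rises and 0 falls at 24 h (51.4% and 10.6%), and 5 and 2 at 4 h (13.9% and 50.6%). Tnfrsf9, the CD137 receptor of the Tnfsf9 product, averaged 18.8 ± 3.31 CPM in co-culture at 24 h, 360 ± 4.64 CPM in co-culture at 4 h, 425 ± 22.5 CPM with peptide at 24 h, 2226 ± 311 CPM with peptide at 4 h, and 72.1 ± 10 CPM at rest (SD, n = 2 each). It rose against rest in co-culture at 4 h (2.32 ± 0.16) and with peptide at 24 h (2.56 ± 0.16) and 4 h (4.95 ± 0.18). It fell in co-culture at 24 h by TMM (-1.94 ± 0.17), where T cell identity scaling gave a rise of 0.63.

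Tnfrsf8, the CD30 receptor of the Tnfsf8 product, averaged 1.19 ± 0.0853 CPM in co-culture at 24 h, 8.04 ± 0.141 CPM in co-culture at 4 h, 384 ± 39 CPM with peptide at 24 h, 10.2 ± 2.53 CPM with peptide at 4 h, and 9.02 ± 0.231 CPM at rest (SD, n = 2 each). It was thus high in both peptide 24 h libraries alone, a log2 fold change of 5.41 ± 0.19 against rest (edgeR adjusted p = 9.43e-10), while its ligand peaked at 4 h of peptide. Tnfrsf11b, the soluble decoy receptor of RANKL, rose with peptide at 24 h (3.08 ± 0.26) and at 4 h (3.35 ± 0.27). Ltbr, the lymphotoxin beta receptor, rose in co-culture at 24 h (6.25 ± 0.38) and 4 h (6.57 ± 0.38). It averaged 59.8 ± 10.7 CPM there at 24 h and 75.0 ± 3.08 CPM at 4 h, against 0.82 ± 0.685 CPM at rest. The part of 4T1 cells in the Ltbr level was not tested. Fas, the receptor of Fas ligand, rose in all 4 activated groups, with changes of 4.21 ± 0.36 in co-culture at 24 h and 4.30 ± 0.36 in co-culture at 4 h. With peptide they were 3.0 ± 0.37 at 24 h and 3.02 ± 0.37 at 4 h.

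Of 15 receptor adaptors and death signaling genes, 7 rose and 3 fell with peptide at 4 h by TMM (28.8% and 30.7% of all genes). Among the rises were the adaptor Traf5 (3.06 ± 0.25) and the caspase-8 inhibitor Cflar (2.65 ± 0.15), both higher also by T cell identity scaling. That scaling gave 2 rises and 9 falls (13.9% and 50.6% of all genes). With peptide at 24 h 3 rose and 10 fell (29.2% and 26.1%), or 6 and 2 by T cell identity scaling (51.4% and 10.6%). Tnfaip3, which encodes the NF-kappaB inhibitor A20, fell there under both (-3.92 ± 0.16 by TMM and -3.07). In co-culture 2 rose and 10 fell at 24 h (36% and 29.3%) and 3 rose and 7 fell at 4 h (34.2% and 26.7%) by TMM. By T cell identity scaling 14 rose and 0 fell at 24 h (80.9% and 1.83% of all genes). At 4 h that scaling gave 11 rises and 1 fall (67.2% and 6.26%).

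Among 6 genes of ligand shedding, 2 rose and 3 fell with peptide at 4 h by TMM (28.8% and 30.7% of all genes). By T cell identity scaling 1 rose and 4 fell (13.9% and 50.6%). Rhbdf2, which encodes a partner of the TNF-shedding protease, rose (3.34 ± 0.20; 2.50 by T cell identity scaling), and Adam17, the protease itself, fell (-0.58 ± 0.13). Over 10 genes that act on the decay of cytokine transcripts, 4 rose and 4 fell with peptide at 4 h by TMM. By T cell identity scaling 2 rose and 6 fell, beside the same shares of all genes. Zfp36l2, of the tristetraprolin family that promotes decay of AU-rich transcripts, fell (-2.75 ± 0.19; -3.60 by T cell identity scaling), and Elavl1, which encodes the stabilizing protein HuR, rose (2.03 ± 0.14; 1.18). These 2 genes do not stand for the list, whose rises and falls were equal in number by TMM. With peptide at 24 h the decay genes had 3 rises and 6 falls by TMM (29.2% and 26.1% of all genes). By T cell identity scaling they had 3 and 5 (51.4% and 10.6%). In co-culture they had 2 and 6 at 24 h (36% and 29.3%) and 2 and 7 at 4 h (34.2% and 26.7%) by TMM. T cell identity scaling gave 9 rises and 0 falls in co-culture at 24 h and 7 and 0 at 4 h, beside rises of 80.9% and 67.2% of all genes. Shedding genes had 0 rises and 4 falls with peptide at 24 h, 1 and 2 in co-culture at 24 h and 1 and 0 in co-culture at 4 h by TMM. Beside these stand the same TMM shares of all genes as for the decay genes. Scaled on T cell identity, 2 of the 6 rose and 0 fell with peptide at 24 h, where 51.4% of all genes rose. In co-culture 6 of 6 rose at both times by that scaling, beside the same 80.9% and 67.2% of all genes.

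Of 8 other ligands of the superfamily, 4 had enough counts for the test. By TMM 2 rose and 1 fell in co-culture at 24 h (36% and 29.3% of all genes). At 4 h 1 rose and 1 fell (34.2% and 26.7%). With peptide 1 rose and 2 fell at 24 h (29.2% and 26.1%), and 0 and 2 at 4 h (28.8% and 30.7%). By T cell identity scaling 2 rose and 0 fell in co-culture at 24 h (80.9% and 1.83%) and 4 h (67.2% and 6.26%). With peptide it gave 1 and 1 at 24 h (51.4% and 10.6%), and 0 and 2 at 4 h (13.9% and 50.6%). Tnfsf13b, the B cell survival factor BAFF, averaged 1.78 ± 0.49 CPM in co-culture at 24 h, 4.78 ± 0.174 CPM in co-culture at 4 h, 3.74 ± 2.13 CPM with peptide at 24 h, 3.34 ± 0.0301 CPM with peptide at 4 h, and 12 ± 0.144 CPM at rest (SD, n = 2 each), and fell in all 4 comparisons with rest by TMM. That fall held by T cell identity scaling with peptide at 4 h (-2.69, edgeR adjusted p = 0.000265). The other calls were lost there, with -0.21 in co-culture at 24 h, 0.01 in co-culture at 4 h and -0.80 with peptide at 24 h (edgeR adjusted p = 0.676, 0.988 and 0.126). Tnfsf15 had 0 counts at rest and averaged 3.97 ± 1.29 CPM in co-culture at 24 h, 1.95 ± 0.0963 CPM in co-culture at 4 h, 0.752 ± 0.291 CPM with peptide at 24 h and 0.0737 ± 0.104 CPM with peptide at 4 h.

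The genes whose log2 CPM over the 10 libraries was most like a member's are named as a description, since the libraries fall into 5 pairs and share their depth and scaling. Nearest to Tnf were Rab8b (Pearson r = 0.992), Btbd19 and Rgcc (0.99 each), and nearest to Fasl were Rgs1 (0.996), Zfp715 and Tagap (0.993 each). Lta was closest to Slc16a3 and Tnfrsf11b (0.988 each) and Tsn (0.987). Ltb was closest to Mgea5 (0.986), Cubn (0.985) and Insig1 (0.978). For Tnfsf14 the nearest genes were Lrrfip1 (0.993), Nr4a3 (0.992) and Slc37a2 (0.988), and for Tnfsf11 they were Pdcd1 (0.987), Mettl2 and Polr3d (0.986 each). For Tnfsf9 they were Lsg1 and Tmem185b (0.99 each) and Gm16310 (0.989), and for Tnfsf10 they were Prss51 (0.988), Ube2h and Inpp1 (0.985 each). Tnfsf8 was nearest to Ikzf2 and Sytl3 (0.984 each) and Nrn1 (0.982), and Tnfsf4, with few counts, to 5031414D18Rik (0.974), Slc26a6 (0.947) and Got1 (0.939).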

How the data were processed

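Read counts per Ensembl gene were taken as deposited by the authors, whole and unscaled. The submitters' processing notes name DESeq2 1.36 and mouse build mm10, and the sources used here name no aligner, counting tool or strand setting. Of 35275 genes, 12534 had no count in any library.

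Counts were tested in edgeR 4.0.16 (R 4.3.3). The 14729 genes that passed filterByExpr (minimum count 10) entered a quasi-likelihood fit over all 10 libraries, with TMM scaling and 5 group means. The fit had 5 residual degrees of freedom, a prior of 7.81 and a common biological coefficient of variation of 0.159. Tests of 9 contrasts were two-sided, with Benjamini-Hochberg adjustment over all tested genes and a threshold of 0.05. The fit was tested on simulated data. Folds against a group without counts used 3 counts over the group and TMM-scaled library sizes. Ratios of few counts carry exact 95% intervals, which cover counting error only. Levels per length divide CPM by the deposited gene length. Alternatives were median-ratio size factors, DESeq2 1.42.0, no filter on low counts, library totals alone, T cell identity scaling, only the groups compared, a replicate block, and leaving out each library.

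The members and the 12 gene lists were chosen with earlier results of these data known. Besides the members and the lists given in the results, 9 CD4 T and NK markers summed to 36.2 to 73.5 CPM and 15 stromal markers to 1373 to 4503 CPM over the libraries. Of 150 list symbols, 149 were found. Genes named from the lists are among the 3 with the lowest p-value per direction and contrast, apart from receptors and other ligands named for their role; genes near a member and the 3 genes most correlated with it were also named. Promoters are RefSeq sequences of GRCm38.p6. Libraries of 1 group were not duplicates, with a mean chi-square per gene of 6.94 to 47.7.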

Additional observations from a re-analysis of the deposited data

Results flagged for a closer look

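For 7 of the 10 ligands, the change at 24 h against 4 h differed between co-culture and peptide by a test of the difference itself (edgeR, adjusted p from 2.07e-06 to 0.00402). The difference, co-culture minus peptide on the log2 scale, was 2.89 for Tnf, -2.38 for Lta, 1.00 for Ltb, 2.19 for Fasl, 2.62 for Tnfsf9, 1.41 for Tnfsf11 and 2.71 for Tnfsf14. Of all tested genes, 15.8% differed upward and 20.2% downward in this test. The calls of Ltb and Tnfsf11 were lost with library totals (0.40 and 0.80, edgeR adjusted p = 0.0942 and 0.0654). They were also lost by T cell identity scaling (0.49 and 0.90, edgeR adjusted p = 0.16 and 0.101). Summed epithelial markers differed little between the co-culture times (4164 to 4184 CPM at 24 h and 4748 to 4889 CPM at 4 h), while the summed T cell identity genes were 1303 to 1374 CPM at 24 h and 3119 to 3261 CPM at 4 h, and their part in the differences was not tested.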

How the results depend on the processing

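Of 90 gene results (10 members in 9 contrasts), 90 kept their direction and their side of the threshold with median-ratio size factors, 89 with DESeq2, 89 without a filter on low counts, 85 when only the groups compared were fitted, 83 with library totals and 62 with T cell identity scaling. DESeq2 gave no value for 1 result, of Tnfsf4, and the fit of only the groups compared gave none for 4, of Tnfsf4 and Tnfsf8. The fit of only the groups compared lost Tnfsf11 in co-culture at 24 h against rest (edgeR adjusted p = 0.127). Without the filter Tnfsf9 in co-culture at 24 h against rest gained a call (0.0436), and library totals lost 3 calls and gained 3. T cell identity scaling changed the sign of 14 results, and lost 14 calls and gained 7, of which 4 and 3 are among the sign changes. The sign changes were Tnf with peptide at 24 h (0.10), Tnf (0.54), Lta (0.94), Fasl (0.20) and Tnfsf8 (0.52) in co-culture at 4 h and Fasl (0.19), Tnfsf9 (2.11) and Tnfsf10 (1.67) in co-culture at 24 h, all against rest. Against peptide they were Ltb at 4 h (2.04) and Fasl (0.92), Tnfsf9 (0.77) and Tnfsf14 (0.22) at 24 h. The remaining ones were Lta at 24 h over 4 h of peptide (1.63) and the source-by-time difference of Tnfsf10 (-0.14). The scaling shifts all genes of a library alike, by construction. Library totals reversed Ltb in co-culture against peptide at 4 h (0.43), Lta at 24 h over 4 h of peptide (0.50) and the source-by-time difference of Tnfsf10 (-0.26). Without 1 library, signs changed for Tnfsf8 with peptide at 24 h against rest (-0.08 without rest replicate 1, range -0.08 to 0.16), Tnfsf4 in co-culture at 24 h against rest (-0.83 without co-culture 24 h replicate 2, range -0.83 to 4.90) and Lta at 24 h over 4 h of peptide (0.10 without peptide 24 h replicate 2, range -0.23 to 0.10), none of them past the threshold, and the cause was not tested. Tnfsf4 in co-culture at 4 h gave no value without rest replicate 1, since both groups were then at 0. With 1 library left out, the lone library of a group is assumed to vary like the others. With Tnfsf4 included, the number of members called then ran from 7 to 9 in co-culture at 24 h, 7 to 8 in co-culture at 4 h, 7 to 9 with peptide at 24 h and 9 to 10 with peptide at 4 h against rest, 9 to 10 and 9 to 9 in co-culture against peptide at 24 h and 4 h, 8 to 9 and 7 to 7 between times in co-culture and with peptide, and 7 to 7 for the source-by-time difference. Fitted with a replicate block, 8 members, Tnfsf4 included, were called with peptide at 24 h against rest in place of 9, and 7 in co-culture at 4 h in place of 8, without Tnfsf9 (edgeR adjusted p = 0.0556) and Lta (0.0576). The block changed no other call. Replicates of the same number deviated with correlations of -0.16 to 0.08 between groups, so the numbers were not taken as pairs. Depth limited Tnfsf4 and Tnfsf8, which had 0 counts in 3 and 2 libraries.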
